A study of Homo sapiens with 24 samples.

Results

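H19 and other imprinted genes were followed through 8 groups of cells of SKBR3, a human breast cancer line with amplified HER2. The members were chosen by name from the gene symbols of the read-count table. Of the 7 genes named (H19, IGF2, PEG10, MEST, GRB10, SGCE and PHLDA2), 6 were among the 14493 genes of the table, and IGF2 was not listed in it. H19 had been picked for its low counts in ND-646 and TVB-3166 cells compared with untreated cells, so its own levels in those groups are given as a description without a test, and the question was whether the other imprinted genes shared that loss.

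RNA-seq was performed on 24 libraries, 3 per group. The 6 drug groups were cells in therapy-induced senescence (TIS), an arrest of proliferation, collected on day 7 after fresh drug on day 3. The arrest is not lasting for all 6 drugs. In the paper, colony formation partly returned after removal of palbociclib, ND-646 or TVB-3166. ND-646, an inhibitor of acetyl-CoA carboxylase (ACC), and TVB-3166, an inhibitor of fatty acid synthase (FASN), were each used at 250 nmol/L. The dose of alisertib, an Aurora kinase A inhibitor, was 500 nmol/L and that of doxorubicin, which damages DNA through topoisomerase II, was 10 nmol/L. Bleomycin, which breaks DNA strands, was given at 10 µmol/L and palbociclib, a CDK4/6 inhibitor, at 1 µmol/L. The remaining groups were untreated cells at day 0, labelled as the proliferative control, and at day 7, labelled as control cells. The labels name a refeed on day 3 for the drug groups and not for the untreated day-7 cells. Comparisons with day-7 cells may therefore differ in refeed as well as in drug. All groups come from 1 cell line, and the labels do not say that replicates were separate cultures, so p-values measure the spread between these libraries, which may be technical.

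Imprinted genes are expressed mainly from the copy inherited from 1 parent. The parental copies differ in DNA methylation or chromatin, in many cases through marks laid down in the germ line. H19 is a long non-coding RNA transcribed from the maternal copy at 11p15.5, next to IGF2, which is transcribed from the paternal copy, and a control region between both genes is bound by CTCF when it is not methylated. PEG10, MEST and SGCE are expressed from the paternal copy and PHLDA2 from the maternal copy, whereas the parental origin of GRB10 expression depends on the tissue and the isoform. H19 is abundant in the placenta and in fetal tissues, falls in most tissues after birth and is found again in many breast cancers. Read counts per gene do not separate the parental copies, so what follows is total expression.

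H19 (NCBI gene 283120) lies on the minus strand of GRCh37 at chr11:2016396-2025782. A microRNA hairpin of 73 bases lies inside an exon of 13 of its 31 annotated transcripts, and its mature products are shown because this RNA is a part of H19 with a known sequence-specific role. The capitals mark the seed, bases 2 to 8, and the sequences are from RefSeq, placed at chr11:2018030-2018052 and chr11:2017998-2018017.
hsa-miR-675-5p: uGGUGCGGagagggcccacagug
hsa-miR-675-3p: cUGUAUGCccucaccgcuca
The seeds differ between both arms. Small RNAs were not measured in these libraries, so the values for H19 below say nothing of the level of either microRNA.

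The control region upstream was searched on both strands for the core motif that CTCF is known to recognise there, 14 letters of which 2 may be any base. In the 10000 bases upstream of the H19 start shared by more annotated transcripts (7 of 31) than any other start there were 5 matches, all on the minus strand, at 2126, 2938, 4371, 4772 and 5177 bases from it. Chromosome 11 held 21 matches in all, and 17 of its 13105 windows of that length (0.13%) held any. The first match (chr11:2021193-2021216) and the second (chr11:2022005-2022028) are shown with 5 bases on either side, and the other 3 had the letters of the first.
First match: agtggCCGCGCGGCGGCAGtgcag
Second match: agtggCCGCGTGGCGGCAGtgcag
The capitals mark the matched core. All 5 matches are upstream of that start (chr11:2019072) but lie within the annotated span of H19 given above. Neither CTCF binding nor DNA methylation was measured here, so these letters only show where the matches lie.

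Total counts were 29405121 to 44316330 per library, which leaves H19 with at least 10 counts in every library. The markers of a HER2-amplified luminal line were high in all libraries, with ERBB2 at 5121 to 8827 CPM (counts scaled to the TMM-normalized library total) and EPCAM at 270 to 592 CPM. Of the markers of other cell types only COL1A1 was in the table, at 6.43 to 15.3 CPM, and PTPRC, CD3E, COL1A2, PECAM1, KRT5 and KRT14 were not listed. Replicate 1 of untreated day-0 cells and replicate 1 of ND-646 TIS cells stood apart from the others of their group, with a chi-square per gene of 171 and 172 and of 146 and 159 against 18.3 and 13.4 between the other 2 libraries, and 14.1 to 52.8 within the remaining groups. H19 with ND-646 and TVB-3166 relative to day-0 cells is therefore given with and without them. Other values are given without them mostly where leaving 1 of them out changed a call or a count.

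H19 was high in both untreated groups and low in all 6 drug groups. It stood at 109, 93.3 and 102 CPM in untreated day-0 cells, and at 64.9, 40.7 and 59.9 CPM in untreated day-7 cells. In ND-646 TIS cells it stood at 0.723, 0.357 and 0.561 CPM, which is 17, 10 and 16 reads, and in TVB-3166 TIS cells at 0.803, 1.33 and 0.820 CPM, which is 24, 42 and 24 reads. All 6 of these libraries were below every other library of the series, and the ND-646 libraries were all below the TVB-3166 libraries.

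The other drug groups lay between those levels and the untreated cells. H19 was at 7.10, 5.08 and 2.89 CPM in bleomycin TIS cells and at 4.77, 4.67 and 4.53 CPM in doxorubicin TIS cells. It was at 3.04, 2.32 and 2.66 CPM with palbociclib and at 4.56, 5.19 and 5.49 CPM with alisertib. In the order of the means, untreated day-0, untreated day-7, alisertib, bleomycin, doxorubicin, palbociclib, TVB-3166 and ND-646, the neighbours alisertib and bleomycin overlapped, as did bleomycin and doxorubicin, and the other neighbours did not.

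**Figure D1:**
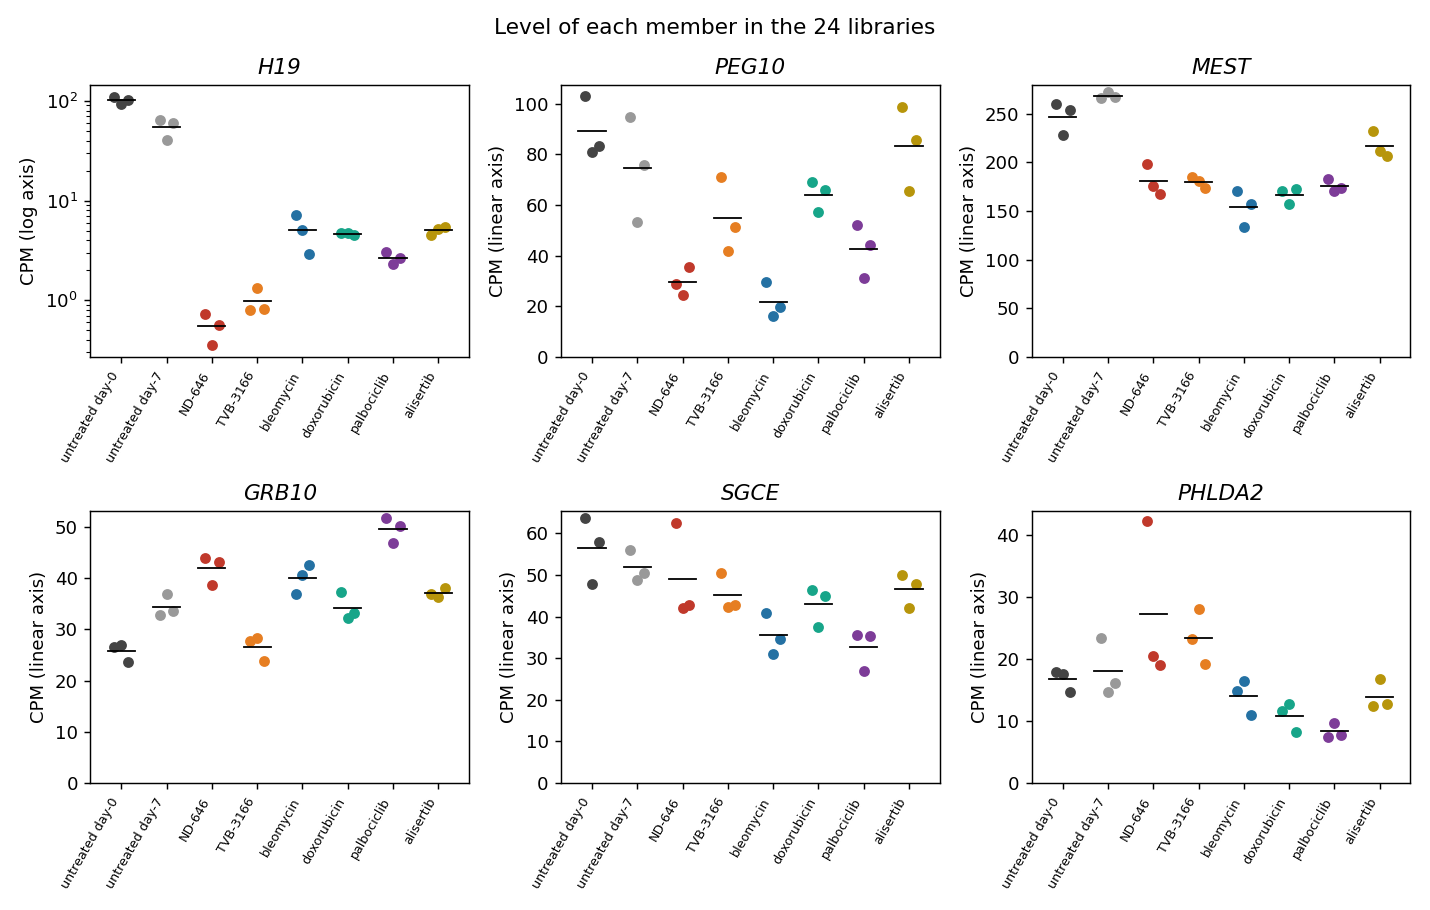
Level of each of the 6 members in CPM in the 24 libraries, by group, on a log axis for H19 and on linear axes from 0 for the others, with 1 point per library and a bar at the mean of the 3 libraries of a group. H19 spans 0.357 to 109 CPM with the ND-646 and TVB-3166 libraries lowest, whereas MEST spans 134 to 273 CPM.

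Relative to untreated day-0 cells, the log2 fold change of H19 was -7.55 ± 0.25 (SE, n = 3 per group) in ND-646 TIS cells, a 187-fold lower level, and -6.67 ± 0.17 in TVB-3166 TIS cells, a 102-fold lower level. It was -5.24 with palbociclib, -4.43 with doxorubicin, -4.33 with bleomycin, -4.32 with alisertib and -0.87 in untreated day-7 cells. Without replicate 1 of the day-0 cells the ND-646 value was -7.50 and the TVB-3166 value -6.62, and without replicate 1 of the ND-646 cells the former was -7.77. These values chose the gene and carry no test. In bulk RNA, fewer cells that express a gene and less of its RNA per cell cannot be told apart.

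Relative to untreated day-7 cells, the log2 fold change of H19 was -6.66 with ND-646, -5.79 with TVB-3166, -4.35 ± 0.19 with palbociclib, -3.54 ± 0.17 with doxorubicin, -3.45 ± 0.30 with bleomycin and -3.42 ± 0.17 with alisertib. These values use the drug libraries already described and are given without a test.

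Between both lipogenesis inhibitors, which were used at the same dose and time, H19 differed by a log2 fold change of 0.86 ± 0.37 (TVB-3166 minus ND-646), and the 3 libraries of each group did not overlap. With 10 to 42 reads behind each value, it is given without a test. Per kilobase of exon, the mean of H19 was 29.3 CPM per kb at day 0 and 0.158 CPM per kb with ND-646. In the same day-0 cells MEST stood at 51.8, PHLDA2 at 18.1, PEG10 at 13.3, SGCE at 2.70 and GRB10 at 2.63 CPM per kb. By this measure H19 ranked after MEST among the 6 members before treatment and last after ND-646, where GRB10 stood at 4.28 and SGCE at 2.35. The length used joins all annotated exons, 20876 bases for SGCE and 9795 for GRB10 against 3462 for H19. The isoforms expressed were not measured, so the order before treatment may differ with their true lengths.

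PEG10 (NCBI gene 23089, chr7:94285637-94299007, plus strand) is a gene derived from a retrotransposon and needed for the placenta. It was at 103, 80.8 and 83.5 CPM in untreated day-0 cells, at 28.9, 24.6 and 35.7 CPM in ND-646 TIS cells and at 29.5, 16.0 and 19.9 CPM in bleomycin TIS cells. The libraries of those 2 drug groups were all under the lowest untreated library, which held 53.2 CPM at day 7. PEG10 also ranged from 42.0 to 71.0 CPM with TVB-3166, from 31.4 to 52.2 with palbociclib and from 57.3 to 69.1 with doxorubicin, all below the day-0 libraries, whereas alisertib, at 65.7 to 98.8 CPM, overlapped them.

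PEG10 fell in 5 of 6 drug groups relative to day-0 cells. The log2 fold change was -2.03 ± 0.20 with bleomycin (edgeR adjusted p = 9.00e-05), -1.59 ± 0.18 with ND-646 (edgeR adjusted p = 0.000295) and -1.06 ± 0.17 with palbociclib (edgeR adjusted p = 0.000496). It was -0.70 ± 0.17 with TVB-3166 (edgeR adjusted p = 0.00494) and -0.46 ± 0.11 with doxorubicin (edgeR adjusted p = 0.00797), and the value for alisertib, -0.10 ± 0.14, did not pass. Against day-7 cells it passed with ND-646 (-1.33), bleomycin (-1.76) and palbociclib (-0.79) and did not pass with TVB-3166 (-0.44, edgeR adjusted p = 0.0983) or doxorubicin (-0.19). Without replicate 2 of the day-7 cells, its lowest library at 53.2 CPM, both passed at -0.63 (edgeR adjusted p = 0.0127) and -0.40 (edgeR adjusted p = 0.0111), and TVB-3166 also passed without its own replicate 1 (-0.67, edgeR adjusted p = 0.0154).

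The order of PEG10 was thus not that of H19, since bleomycin gave the lowest mean of PEG10, with libraries that overlapped those of ND-646, and TVB-3166 a higher mean than palbociclib, also with overlap. Between TVB-3166 and ND-646 the PEG10 libraries did not overlap, at a log2 fold change of 0.89 ± 0.22 (edgeR adjusted p = 0.117, with 0.87 and an adjusted p of 0.0262 without replicate 1 of ND-646). DESeq2 called that difference at 0.88 (DESeq2 adjusted p = 0.0109).

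MEST (NCBI gene 4232, chr7:130126012-130146306, plus strand) codes for a protein of the alpha/beta hydrolase fold. It was at 260, 228 and 254 CPM in untreated day-0 cells and at 266, 273 and 267 CPM in untreated day-7 cells. In ND-646 TIS cells it was at 199, 176 and 168 CPM and in TVB-3166 TIS cells at 185, 181 and 174 CPM. These 6 drug libraries were all below the 6 untreated ones, and so were the bleomycin (134 to 171 CPM), doxorubicin (157 to 172 CPM) and palbociclib (170 to 183 CPM) libraries, while alisertib reached from 207 to 233 CPM.

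Relative to day-0 cells MEST fell in 5 of 6 drug groups, by a log2 fold change of -0.67 ± 0.11 with bleomycin (edgeR adjusted p = 0.00115), -0.56 ± 0.09 with doxorubicin, -0.49 ± 0.09 with palbociclib, -0.46 ± 0.14 with ND-646 (edgeR adjusted p = 0.0303) and -0.45 ± 0.09 with TVB-3166 (edgeR adjusted p = 0.00161). The ND-646 value no longer passed without replicate 1 of the day-0 cells (-0.42, edgeR adjusted p = 0.0875), nor without any 1 of 4 other libraries. Relative to day-7 cells it fell in all 6 drug groups, from -0.29 ± 0.07 with alisertib (edgeR adjusted p = 0.0176) to -0.79 ± 0.10 with bleomycin, and there ND-646 (-0.57 ± 0.12) had an edgeR adjusted p of 0.00735. The alisertib call was lost without its replicate 2, without its replicate 3 or without replicate 3 of the day-7 cells, at -0.28, -0.26 and -0.30 (edgeR adjusted p = 0.0624, 0.0845 and 0.0638).

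SGCE (NCBI gene 8910, chr7:94153516-94285884, minus strand) codes for epsilon-sarcoglycan, a membrane protein whose loss causes myoclonus-dystonia. Its gene model overlaps that of PEG10 by 248 bases (chr7:94285637-94285884) on the other strand, and because the use of strand in counting is not given, reads from that stretch cannot be assigned. It was at 63.6, 47.8 and 57.9 CPM in day-0 cells, at 62.5, 42.0 and 42.8 CPM with ND-646 and at 35.5, 27.0 and 35.3 CPM with palbociclib. Palbociclib libraries were all below the day-0 libraries, whereas replicate 1 of ND-646, 1 of the libraries that stand apart, lay within them.

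SGCE fell with palbociclib (-0.79 ± 0.14, edgeR adjusted p = 0.000867), bleomycin (-0.67 ± 0.14, edgeR adjusted p = 0.00349), doxorubicin (-0.38 ± 0.12, edgeR adjusted p = 0.0269) and TVB-3166 (-0.32 ± 0.12, edgeR adjusted p = 0.0449). Without replicate 1 of the day-0 cells the doxorubicin and TVB-3166 values were -0.30 and -0.22 and no longer passed (edgeR adjusted p = 0.0624 and 0.118). The doxorubicin call was also lost without its replicate 2 (-0.30, edgeR adjusted p = 0.0931) or replicate 3 of the day-0 cells (-0.36, edgeR adjusted p = 0.0570), and the TVB-3166 call without its replicate 2 (-0.27), its replicate 3 (-0.28) or replicate 3 of the day-0 cells (-0.30), at edgeR adjusted p values of 0.148, 0.147 and 0.0951. With ND-646 the value was -0.21 ± 0.19 and did not pass, and it passed at -0.42 (edgeR adjusted p = 0.0255) without replicate 1 of ND-646. With alisertib it was -0.28 ± 0.12 (edgeR adjusted p = 0.0810), -0.28 with the replicate number as a block (edgeR adjusted p = 0.0244) and -0.38 without replicate 2 of the day-0 cells (edgeR adjusted p = 0.0330). Against day-7 cells SGCE fell with palbociclib (-0.66) and bleomycin (-0.53), and with doxorubicin it was -0.25 with an edgeR adjusted p of 0.0617 and, with the block, 0.0295. Without replicate 2 of the day-7 cells doxorubicin passed at -0.30 (edgeR adjusted p = 0.0366), TVB-3166 (-0.19, edgeR adjusted p = 0.114) passed at -0.28 without its replicate 1 (edgeR adjusted p = 0.0322), and ND-646 (-0.08) passed at -0.30 without its replicate 1 (edgeR adjusted p = 0.0239).

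GRB10 (NCBI gene 2887, chr7:50657760-50861159, minus strand) codes for an adaptor that binds the insulin and IGF receptors and dampens their signalling. In contrast to the paternally expressed members, it was higher after most drugs. It was at 26.6, 27.0 and 23.6 CPM in day-0 cells, at 43.9, 38.7 and 43.2 CPM with ND-646 and at 51.8, 46.9 and 50.1 CPM with palbociclib. TVB-3166 libraries, at 27.8, 28.3 and 23.8 CPM, overlapped the day-0 libraries and did not overlap those of ND-646.

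GRB10 rose in 5 of 6 drug groups relative to day-0 cells, by 0.95 ± 0.10 on the log2 scale with palbociclib (edgeR adjusted p = 3.61e-05), 0.70 ± 0.14 with ND-646 (edgeR adjusted p = 0.00488), 0.64 ± 0.12 with bleomycin (edgeR adjusted p = 0.00162), 0.52 ± 0.09 with alisertib (edgeR adjusted p = 0.00219) and 0.42 ± 0.10 with doxorubicin (edgeR adjusted p = 0.00753). Without replicate 1 of doxorubicin that last value was 0.35 (edgeR adjusted p = 0.0502). Untreated day-7 cells, at 32.7 to 36.8 CPM, were also above the day-0 cells (0.43 ± 0.10, edgeR adjusted p = 0.0761, and 0.0282 with the replicate number as a block). Against day-7 cells the rise passed only with palbociclib among the 6 drug groups (0.54 ± 0.09, edgeR adjusted p = 0.000526), and with TVB-3166 GRB10 fell (-0.36 ± 0.10, edgeR adjusted p = 0.00982).

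TVB-3166 and ND-646 differed in GRB10 by a log2 fold change of -0.65 ± 0.13, which missed the edgeR threshold (adjusted p = 0.0690). It was -0.62 and passed without replicate 1 of ND-646 (edgeR adjusted p = 0.00614), and DESeq2 called it on all libraries at -0.66 (DESeq2 adjusted p = 0.000346).

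PHLDA2 (NCBI gene 7262, chr11:2949503-2950650, minus strand) codes for a small pleckstrin-homology protein that restrains growth of the placenta, and like H19 it lies at 11p15.5 and is expressed from the maternal copy. It was at 17.8, 17.5 and 14.7 CPM in day-0 cells, at 42.1, 20.4 and 18.9 CPM with ND-646 and at 23.1, 28.0 and 19.1 CPM with TVB-3166. All libraries of both lipogenesis inhibitors were above the day-0 libraries, and the ND-646 mean rested on its replicate 1. In palbociclib TIS cells PHLDA2 was at 7.35, 9.68 and 7.79 CPM and in doxorubicin TIS cells at 11.6, 12.7 and 8.19 CPM, below all day-0 libraries.

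PHLDA2 rose with TVB-3166 (0.50 ± 0.15, edgeR adjusted p = 0.0155) and fell with palbociclib (-1.01 ± 0.15, edgeR adjusted p = 0.000255) and doxorubicin (-0.61 ± 0.17, edgeR adjusted p = 0.0134). With ND-646 the log2 fold change was 0.69 ± 0.29 and did not pass (edgeR adjusted p = 0.0910), and it was 0.24 without replicate 1 of ND-646 (edgeR adjusted p = 0.176). It was 0.90 and passed without replicate 3 of ND-646 (edgeR adjusted p = 0.0434). The TVB-3166 rise was lost without its replicate 2 (0.35, edgeR adjusted p = 0.0828) or replicate 3 of the day-0 cells (0.41, edgeR adjusted p = 0.0544). Bleomycin gave -0.24 and alisertib -0.27, neither of which passed. Against day-7 cells the TVB-3166 value was 0.38 ± 0.18 (edgeR adjusted p = 0.0985, and 0.61 with 0.00747 without replicate 1 of the day-7 cells), palbociclib gave -1.11 and doxorubicin -0.71, which both passed, and ND-646 gave 0.59 ± 0.32 (edgeR adjusted p = 0.194, and 0.53 with 0.0454 with the replicate number as a block).

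The other 5 members were next counted in each comparison and set beside the share of all genes called in the same direction. Here and for the lists below, the shares are from edgeR with all libraries of a comparison and no block. They do not apply to counts by DESeq2, at an unadjusted p, with a block or without a replicate. Relative to day-0 cells, 1 of 5 was higher and 2 were lower with ND-646, where 19.1% of all genes were called higher and 18.8% lower. With TVB-3166 1 was higher and 3 lower (27.4% and 27.7% of all genes), and with bleomycin 1 was higher and 3 lower (24.1% and 25.3%). With doxorubicin 1 was higher and 4 lower (23.7% and 24.8%), and with palbociclib 1 was higher and 4 lower (26.0% and 27.2%). With alisertib 1 was higher (17.7%) and by edgeR 0 were lower (19.6%), with 1 lower at an unadjusted p under 0.05 and 0 by DESeq2.

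Between untreated day-7 and day-0 cells edgeR called 0 of the 5 higher and 0 lower (0.389% and 0.198% of all genes), 1 was higher and 0 lower at an unadjusted p under 0.05, and DESeq2 called 1 higher and 0 lower. The share lower was above that of all genes in 5 drug groups and not with alisertib, and it is a count over 5 genes chosen with results known. Set against day-7 cells, 2 of the 5 were lower with ND-646, TVB-3166 and doxorubicin, 3 with bleomycin, 4 with palbociclib and 1 with alisertib, where 17.1%, 26.1%, 21.5%, 23.2%, 22.9% and 9.49% of all genes were lower. The member medians relative to day-0 cells were -0.21 with ND-646, -0.32 with TVB-3166, -0.67 with bleomycin, -0.46 with doxorubicin, -0.79 with palbociclib and -0.19 with alisertib, and the medians of all genes lay between -0.01 and 0.02.

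Relative to untreated day-7 cells, 2 of the 5 were lower with ND-646 (17.1% of all genes), 2 with TVB-3166 (26.1%), 3 with bleomycin (23.2%), 2 with doxorubicin (21.5%), 4 with palbociclib (22.9%) and 1 with alisertib (9.49%). Palbociclib was the drug with a member called higher, 1 of 5 against 22.0% of all genes. For ND-646, TVB-3166, bleomycin, doxorubicin and alisertib 0 of the 5 were higher by edgeR and by DESeq2, where edgeR called 17.2%, 25.4%, 22.4%, 21.9% and 9.55% of all genes, and 1 was higher with bleomycin at an unadjusted p under 0.05. Between TVB-3166 and ND-646 edgeR called 0 of the 5 in either direction (0.520% of all genes higher and 0.198% lower), and both an unadjusted p under 0.05 and DESeq2 gave 1 higher, PEG10, and 1 lower, GRB10.

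**Figure D2:**
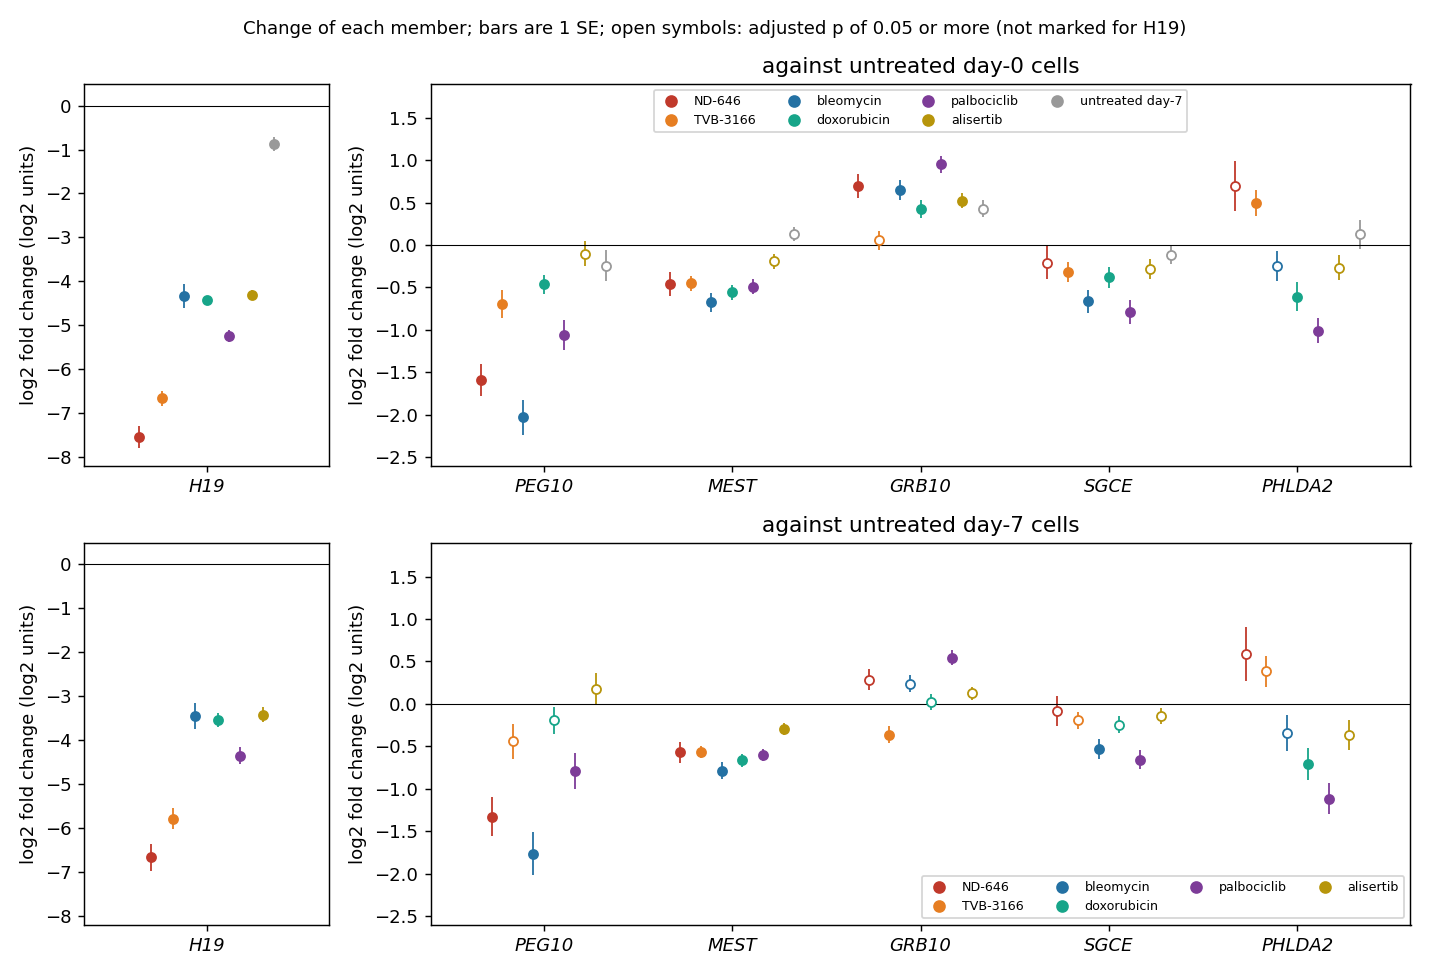
Log2 fold changes of the 6 members relative to untreated day-0 cells (top) and untreated day-7 cells (bottom), 1 colour per group, with bars of 1 SE (3 libraries per group) and open symbols where the edgeR adjusted p was 0.05 or more (not marked for H19, which has an axis of its own). H19 lies at -4.32 to -7.55 in the drug groups relative to day-0 cells, and every other member lies between -2.03 and 0.95.

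The size of the change set H19 apart from the other members in these values. In ND-646 TIS cells the next lowest member, PEG10, was at -1.59 against -7.55 for H19, and in TVB-3166 TIS cells it was at -0.70 against -6.67. H19 was chosen for that size, so the gap is a description. All comparisons with day-0 cells share the same 3 day-0 libraries and are given side by side for that reason.

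Whether imprinted genes in general changed was read from a list of 48 other imprinted genes, of which 21 were in the table and 20 or 21 entered each test. The other 27 were not in the table, which holds only genes with at least 1 count in every library. A gene that lost all its reads in any library would therefore not be seen here. Relative to day-0 cells 11 of the genes tested rose in at least 1 drug group and 5 fell, where 42.9% of all genes were higher and 42.0% lower in at least 1 drug group. By drug, 5 were higher and 0 lower with ND-646 by edgeR (2 lower at an unadjusted p under 0.05 and 1 by DESeq2), and 5 were higher and 1 lower with TVB-3166. With bleomycin 5 were higher and 0 lower by edgeR (1 lower at an unadjusted p under 0.05 and 0 by DESeq2), with doxorubicin 7 were higher and 4 lower, with palbociclib 7 and 3, and with alisertib 4 and 3, where 19.1% of all genes were higher and 18.8% lower with ND-646, 27.4% and 27.7% with TVB-3166, 24.1% and 25.3% with bleomycin, 23.7% and 24.8% with doxorubicin, 26.0% and 27.2% with palbociclib and 17.7% and 19.6% with alisertib. Relative to day-7 cells 2 were higher and 0 lower with ND-646 by edgeR (2 lower at an unadjusted p under 0.05), 4 and 2 with TVB-3166, 3 and 1 with bleomycin, 5 and 5 with doxorubicin, 9 and 3 with palbociclib and 3 and 1 with alisertib. The shares of all genes higher and lower relative to day-7 cells were 17.2% and 17.1% with ND-646, 25.4% and 26.1% with TVB-3166, 22.4% and 23.2% with bleomycin, 21.9% and 21.5% with doxorubicin, 22.0% and 22.9% with palbociclib and 9.55% and 9.49% with alisertib. The counts of higher genes with ND-646 and bleomycin were 2 and 3 without replicate 1 of the day-0 cells, where the share of all genes is not given.

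The medians of the list relative to day-0 cells were 0.10 with ND-646, 0.21 with TVB-3166, 0.13 with bleomycin, 0.06 with doxorubicin, 0.24 with palbociclib and 0.13 with alisertib. No drug group thus had a negative median in this list, while the median of the 5 members was negative in all 6.

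TFPI2, a secreted inhibitor of serine proteases, changed most in this list. It was at 0.458, 1.69 and 2.43 CPM in day-0 cells, at 5.99, 12.1 and 9.12 CPM with ND-646 and at 20.1, 32.2 and 33.6 CPM with palbociclib. All drug libraries of TFPI2 were above all untreated ones. It rose in all 6 drug groups, with a log2 fold change of 2.58 ± 0.52 with ND-646 (edgeR adjusted p = 0.00505), 2.05 ± 0.48 with TVB-3166 (edgeR adjusted p = 0.00385), 3.16 with bleomycin, 4.12 with doxorubicin, 4.25 ± 0.41 with palbociclib (edgeR adjusted p = 1.93e-05) and 1.62 with alisertib.

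L3MBTL1, a chromatin protein that binds methylated histones, was at 0.288 to 0.407 CPM in day-0 cells and at 0.638 to 1.79 CPM with ND-646. It rose in all 6 drug groups, from 1.73 ± 0.34 with bleomycin to 3.11 ± 0.38 with palbociclib, and was at 1.85 with ND-646 (edgeR adjusted p = 0.0107) and 2.39 with TVB-3166 (edgeR adjusted p = 0.000128). Untreated day-7 cells stood at 0.599, 1.19 and 1.04 CPM, overlapping the ND-646 libraries. Relative to them L3MBTL1 was higher with TVB-3166 (1.04, edgeR adjusted p = 0.0178), alisertib (1.32, edgeR adjusted p = 0.0185) and palbociclib (1.77, edgeR adjusted p = 0.00247), whereas ND-646 (0.50, edgeR adjusted p = 0.405), bleomycin (0.39) and doxorubicin (0.43) did not pass.

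PPP1R9A, a neuronal actin-binding protein at the imprinted cluster of PEG10 and SGCE, rose in 5 of 6 groups, by 1.27 ± 0.32 with ND-646 (edgeR adjusted p = 0.0130) and 0.99 with TVB-3166, and with bleomycin it was 0.97 with an edgeR adjusted p of 0.0594. The ND-646 value was 1.13 without replicate 1 of the day-0 cells and no longer passed (edgeR adjusted p = 0.0517). In untreated day-7 cells it was at 1.82, 3.01 and 1.69 CPM, and relative to them it passed with palbociclib (1.13 ± 0.25, edgeR adjusted p = 0.00353) and not in the other drug groups, where it was 0.12 with ND-646, -0.16 with TVB-3166, -0.17 with bleomycin, 0.27 with doxorubicin and 0.58 with alisertib (edgeR adjusted p = 0.126).

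SNRPN, which codes for a splicing factor and shares its transcript with SNURF, was at 57.1, 19.5 and 22.2 CPM with ND-646 and at 14.7, 17.7 and 11.4 CPM in day-0 cells. Its ND-646 value, 1.16 ± 0.39 (edgeR adjusted p = 0.0424), was 0.51 and still passed without replicate 1 of ND-646 (edgeR adjusted p = 0.0389), and it did not pass without replicate 1 of the day-0 cells (1.16, edgeR adjusted p = 0.120). Against day-7 cells it was 0.98 and did not pass (edgeR adjusted p = 0.0757). Reads of SNRPN and SNURF cannot be told apart where their gene models overlap. With doxorubicin SNRPN fell by 0.54 on the log2 scale (edgeR adjusted p = 0.0282).

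Of the imprinted genes at 11p15.5 beside H19 and PHLDA2, KCNQ1OT1, SLC22A18, OSBPL5 and SLC22A18AS were in the table. KCNQ1OT1, an antisense RNA made from the paternal copy, was at 1.02 to 2.85 CPM in day-0 cells and rose with bleomycin (1.10, edgeR adjusted p = 0.0423), doxorubicin (1.40, edgeR adjusted p = 0.0110) and palbociclib (1.13, edgeR adjusted p = 0.0199). It was 0.46 with ND-646 and 0.56 with TVB-3166, neither of which passed. Both TVB-3166 (1.01, edgeR adjusted p = 0.0165) and alisertib (0.88, edgeR adjusted p = 0.0281) passed without replicate 1 of the day-0 cells. Against day-7 cells KCNQ1OT1 passed with doxorubicin (1.01, edgeR adjusted p = 0.0103) and palbociclib (0.74, edgeR adjusted p = 0.0392) and not with bleomycin (0.70, edgeR adjusted p = 0.0906). SLC22A18, a membrane transporter, rose with ND-646 (0.61, edgeR adjusted p = 0.0350) and TVB-3166 (0.36, edgeR adjusted p = 0.0176) and fell with doxorubicin (-0.79) and palbociclib (-0.71), the same directions as its neighbour PHLDA2 had in the tests that passed for both genes.

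The SLC22A18 value with ND-646 was 0.72 without replicate 1 of the day-0 cells (edgeR adjusted p = 0.0502). OSBPL5, a lipid transfer protein, rose with TVB-3166 (0.58 ± 0.11, edgeR adjusted p = 0.00123) and palbociclib (0.32, edgeR adjusted p = 0.0459), and with ND-646 it was 0.39 (edgeR adjusted p = 0.0813) and 0.47 without replicate 1 of ND-646 (edgeR adjusted p = 0.0108). Against day-7 cells OSBPL5 was higher with TVB-3166 (0.32, edgeR adjusted p = 0.0105) and lower with doxorubicin (-0.31, edgeR adjusted p = 0.0246), and with palbociclib it was 0.07 (edgeR adjusted p = 0.625). SLC22A18AS was at 0.13 to 0.45 CPM in group means, entered the tests with ND-646 and bleomycin among the drug groups and did not pass, and its reads cannot be told from those of SLC22A18 where both overlap.

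**Figure D3:**
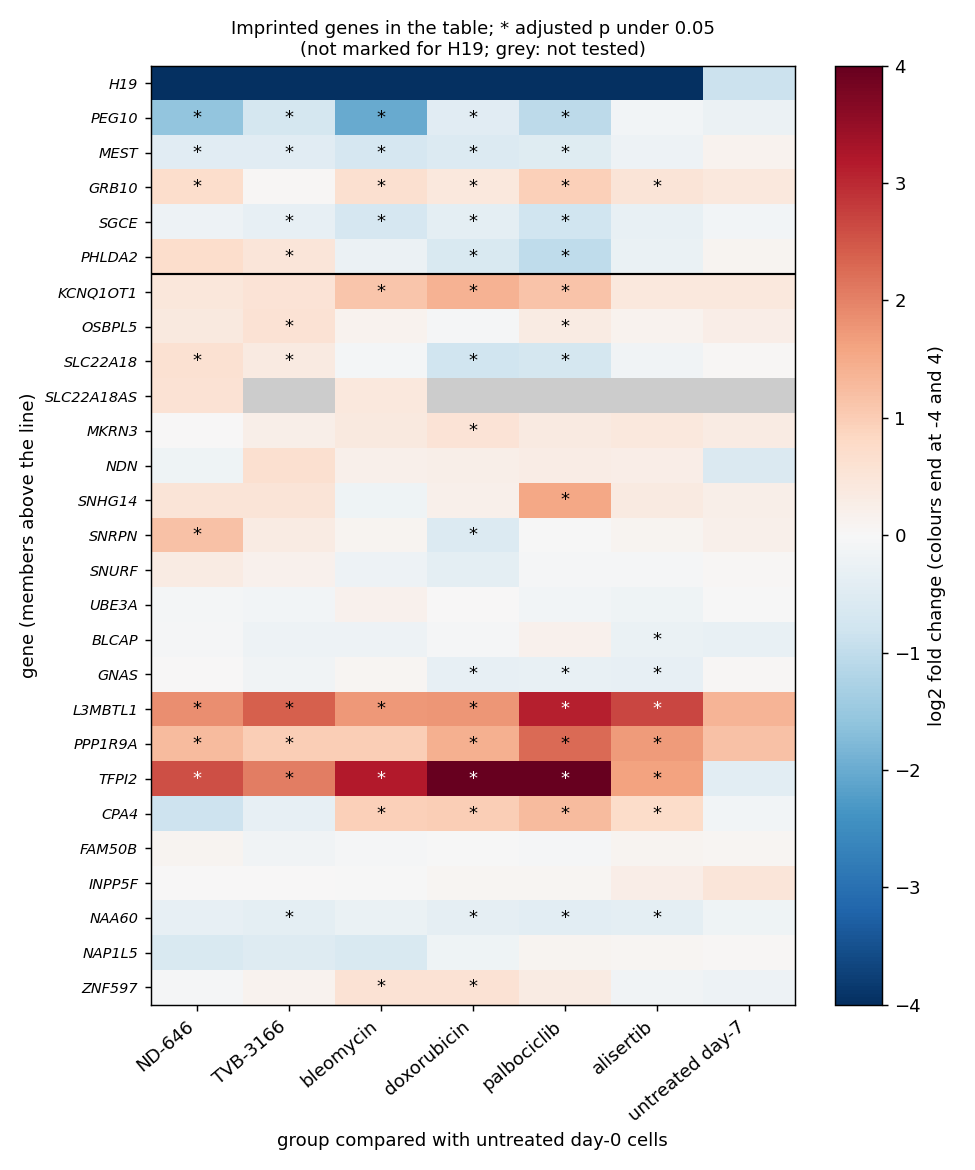
Log2 fold changes of the members (above the line) and of the other imprinted genes of the table relative to untreated day-0 cells, from blue (lower) to red (higher) with colours ending at -4 and 4, grey where a gene was not tested, and an asterisk where the edgeR adjusted p was under 0.05 (not marked for H19). TFPI2 and L3MBTL1 are red in all 6 drug groups, and H19 is at the end of the blue scale in all 6.

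Genes around H19 were examined next. Of 57 annotated genes within 500 kb of it, IGF2 among them, 10 were in the table, and relative to day-0 cells 5 rose and 5 fell in at least 1 drug group. Of all genes, 42.9% were higher and 42.0% lower in at least 1 drug group. With ND-646 3 were higher and 3 lower, with TVB-3166, bleomycin and palbociclib 4 and 4, with doxorubicin 3 and 4, and with alisertib 2 and 5, beside shares of all genes of 19.1% and 18.8% with ND-646, 27.4% and 27.7% with TVB-3166, 24.1% and 25.3% with bleomycin, 26.0% and 27.2% with palbociclib, 23.7% and 24.8% with doxorubicin and 17.7% and 19.6% with alisertib. Relative to day-7 cells 4 were higher and 0 lower with ND-646 by edgeR (1 lower at an unadjusted p under 0.05), 6 and 1 with TVB-3166, 5 and 2 with bleomycin, 4 and 3 with doxorubicin and palbociclib and 3 and 3 with alisertib. Of all genes, 17.2% were higher and 17.1% lower there with ND-646, 25.4% and 26.1% with TVB-3166 and 22.4% and 23.2% with bleomycin. The shares were 21.9% and 21.5% with doxorubicin, 22.0% and 22.9% with palbociclib and 9.55% and 9.49% with alisertib. The count of neighbours lower with ND-646 relative to day-0 cells was 1 without replicate 1 of the day-0 cells. The share of all genes in that fit is not given.

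MRPL23, which codes for a protein of the mitochondrial ribosome, was the closest of the 10, 10.6 kb from H19. It was at 42.2, 39.7 and 34.7 CPM in day-0 cells, at 33.4, 19.7 and 20.2 CPM with ND-646 and at 22.3, 16.6 and 22.4 CPM with TVB-3166. It fell in all 6 drug groups, by 0.53 (alisertib) to 1.13 (palbociclib) on the log2 scale, with -0.68 ± 0.22 with ND-646 (edgeR adjusted p = 0.0366) and -0.92 ± 0.14 with TVB-3166 (edgeR adjusted p = 0.000187). The ND-646 value was -0.62 and did not pass without replicate 1 of the day-0 cells (edgeR adjusted p = 0.116). Against day-7 cells it was -0.49 with ND-646 (edgeR adjusted p = 0.102), and the other 5 drug groups passed.

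TH, which codes for tyrosine hydroxylase and lies beyond IGF2 at 159.4 kb, was at 41.2, 49.7 and 41.8 CPM in day-0 cells and at 12.7 to 15.3 CPM with alisertib. It fell in all 6 drug groups, from -0.64 with ND-646 (edgeR adjusted p = 0.0179) to -1.65 with alisertib (edgeR adjusted p = 3.06e-05), and was at -0.73 in untreated day-7 cells (edgeR adjusted p = 0.0521). Against day-7 cells TH was lower with alisertib (-0.89, edgeR adjusted p = 0.00214) and palbociclib (-0.38, edgeR adjusted p = 0.0336), whereas ND-646 (0.11, edgeR adjusted p = 0.672), TVB-3166 (-0.34, edgeR adjusted p = 0.0542), bleomycin (-0.43) and doxorubicin (-0.17) did not pass. SYT8, a synaptotagmin, fell in 5 of 6 drug groups, most with bleomycin (-2.03) and doxorubicin (-1.86), and its ND-646 value, -0.70 (edgeR adjusted p = 0.0497), was -0.80 and did not pass without replicate 1 of the day-0 cells (edgeR adjusted p = 0.0621). Against day-7 cells it passed with bleomycin (-1.79), doxorubicin (-1.61) and alisertib (-0.76) and was -0.46 with ND-646 (edgeR adjusted p = 0.169).

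Other genes of the region rose. KRTAP5-AS1, a non-coding RNA whose gene model overlaps DUSP8 on the other strand, was at 0.559, 1.28 and 1.36 CPM in day-0 cells and at 2.98 CPM or more in every drug library, and rose by 1.61 (TVB-3166) to 2.58 (doxorubicin) on the log2 scale in all 6 drug groups. IFITM10 rose in 5 of 6 groups, by 1.01 ± 0.18 with ND-646 (edgeR adjusted p = 0.00264) and 1.89 ± 0.17 with bleomycin. CTSD, the lysosomal protease cathepsin D, rose with ND-646 (0.85, edgeR adjusted p = 0.0188), TVB-3166 (0.67), bleomycin (0.45) and palbociclib (0.57), from a mean of 3186 CPM at day 0 to 5779 CPM with ND-646. Against day-7 cells KRTAP5-AS1 and CTSD rose in all 6 drug groups and IFITM10 in 5.

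**Figure D4:**
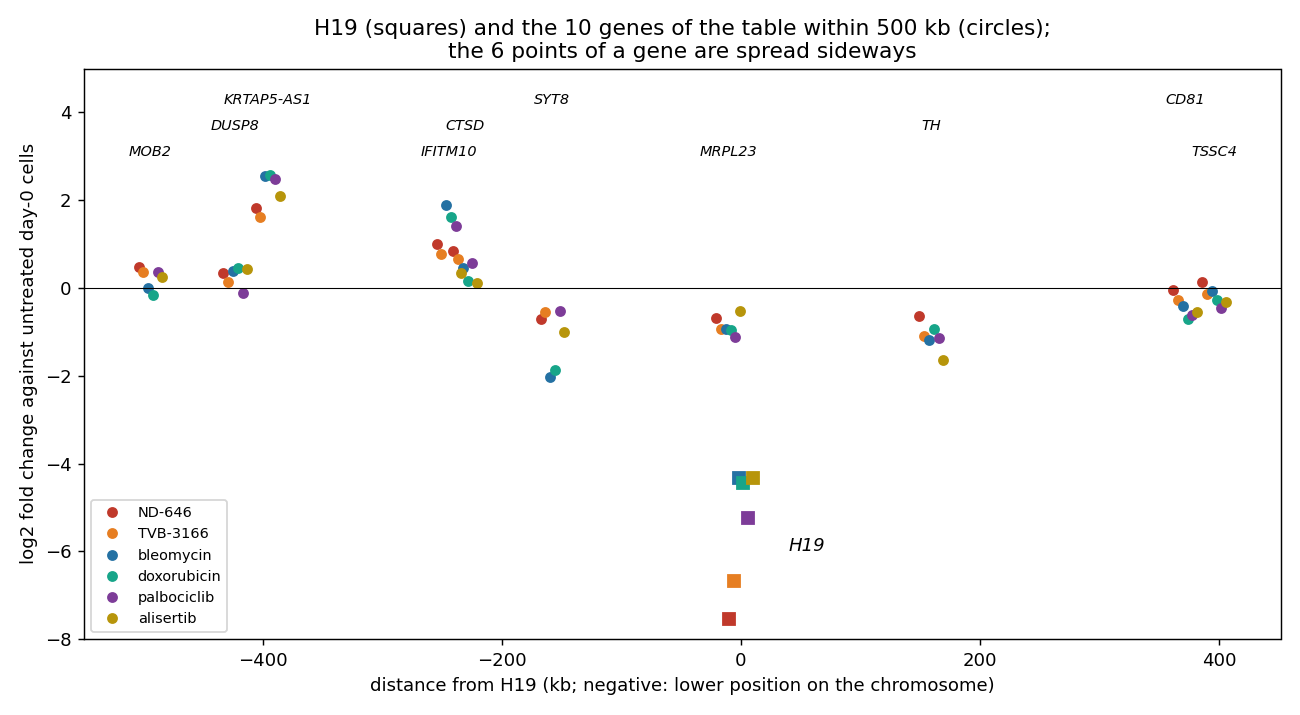
Log2 fold changes relative to untreated day-0 cells of H19 (squares) and of the 10 genes of the table within 500 kb (circles) against their distance from H19 in kb, with 1 colour per drug group and the 6 points of a gene spread sideways. The neighbours lie between -2.03 and 2.58 on both sides of 0, and H19 lies at -4.32 to -7.55.

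Of 17 factors that set or keep imprints, 13 were in the table. Relative to day-0 cells edgeR called 0 higher and 4 lower with ND-646 (1 higher at an unadjusted p under 0.05), 2 and 7 with TVB-3166, 2 and 5 with bleomycin, 5 and 2 with doxorubicin, 3 and 7 with palbociclib and 2 and 2 with alisertib. The shares of all genes higher and lower were 19.1% and 18.8%, 27.4% and 27.7%, 24.1% and 25.3%, 23.7% and 24.8%, 26.0% and 27.2%, and 17.7% and 19.6% in the same order. With day-7 cells as the reference edgeR called 0 higher and 3 lower with ND-646, 2 and 7 with TVB-3166, 1 and 4 with bleomycin, 2 and 1 with doxorubicin, 0 and 7 with palbociclib and 0 and 1 with alisertib, and at an unadjusted p under 0.05 also 0 were higher with ND-646, palbociclib and alisertib. Of all genes, 17.2% were higher and 17.1% lower there with ND-646, 25.4% and 26.1% with TVB-3166 and 22.4% and 23.2% with bleomycin. The shares were 21.9% and 21.5% with doxorubicin, 22.0% and 22.9% with palbociclib and 9.55% and 9.49% with alisertib. Relative to day-0 cells, 4 of the 13 factors were higher with ND-646 without its replicate 1. Without replicate 1 of the day-0 cells 4 were lower with doxorubicin and 1 higher with bleomycin. With the replicate number as a block 4 were lower with alisertib (22.4% of all genes). For the fits without a replicate the share of all genes is not given, so their counts are not compared with it. DNMT1, which copies DNA methylation after replication, was at 109, 105 and 101 CPM in day-0 cells, at 19.9, 30.7 and 32.4 CPM with ND-646 and at 39.3, 33.7 and 45.3 CPM with TVB-3166. It fell in all 6 drug groups, by -1.93 ± 0.20 with ND-646 (edgeR adjusted p = 0.000175), -1.41 with TVB-3166 (edgeR adjusted p = 3.27e-06), -1.25 with bleomycin, -0.98 with palbociclib, -0.46 with doxorubicin and -0.36 with alisertib. Against day-7 cells doxorubicin (-0.21, edgeR adjusted p = 0.0618) and alisertib (-0.11, edgeR adjusted p = 0.389) did not pass, and the other 4 groups did.

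UHRF1, which brings DNMT1 to newly copied DNA, fell with ND-646 (-2.62 ± 0.40, edgeR adjusted p = 0.00125), TVB-3166 (-1.87), bleomycin (-1.91) and palbociclib (-1.04), whereas doxorubicin (-0.33) and alisertib (-0.23) did not pass. Both passed without replicate 1 of the day-0 cells, at -0.57 (edgeR adjusted p = 0.00452) and -0.46 (edgeR adjusted p = 0.0114). TRIM28, the corepressor that protects imprints in the early embryo, fell in all 6 drug groups, by -0.56 (bleomycin) to -0.85 (TVB-3166 and palbociclib), and against day-7 cells it passed with TVB-3166 (-0.48) and palbociclib (-0.46) and not in the other 4 groups. DNMT3B, a methyltransferase that sets new marks, fell with ND-646 (-1.24, edgeR adjusted p = 0.0150), TVB-3166 (-0.75), bleomycin (-0.88) and palbociclib (-0.80), and without replicate 1 of the day-0 cells its doxorubicin value of -0.38 was -0.48 and passed (edgeR adjusted p = 0.0229).

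Known regulators of H19 transcription did not move together. E2F1, an activator of H19 in S phase, was at 53.0, 56.1 and 47.6 CPM in day-0 cells and at 9.48, 10.7 and 11.5 CPM with ND-646, with no overlap. It fell with ND-646 (-2.31 ± 0.16, edgeR adjusted p = 2.33e-05), bleomycin and palbociclib (both -1.85), TVB-3166 (-1.81) and doxorubicin (-0.81), and with alisertib it was -0.25 (edgeR adjusted p = 0.0967). Whether E2F1 or any other regulator had a part in the level of H19 was not tested. MYC fell with ND-646 (-0.58, edgeR adjusted p = 0.0223) and TVB-3166 (-0.65, edgeR adjusted p = 0.00221) and rose with doxorubicin (0.46) and palbociclib (0.58), and with alisertib it was 0.36 (edgeR adjusted p = 0.0712, and 0.37 with 0.0212 with the replicate number as a block). The doxorubicin value of MYC was 0.34 and did not pass without replicate 1 of the day-0 cells (edgeR adjusted p = 0.0564). In untreated day-7 cells MYC was at 243, 156 and 228 CPM, and relative to them it was lower with ND-646 (-1.12, edgeR adjusted p = 0.00207) and TVB-3166 (-1.20, edgeR adjusted p = 6.47e-05), whereas bleomycin (-0.26), doxorubicin (-0.08), palbociclib (0.04) and alisertib (-0.17) did not pass. Against day-7 cells E2F1 passed in the same 5 groups as against day-0 cells.

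HIF1A, the oxygen-regulated factor, rose in 5 of 6 drug groups, by 0.34 (alisertib) to 0.70 (bleomycin), and with ND-646 it was 0.45 (edgeR adjusted p = 0.0823) and, without replicate 1 of ND-646, 0.61 (edgeR adjusted p = 0.000982). Against day-7 cells the alisertib value was 0.24 and did not pass (edgeR adjusted p = 0.0537).

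Because IGF2 was not listed, the IGF axis was read from its other genes, of which 11 of 16 were in the table. Relative to day-0 cells 6 were higher and 1 lower with ND-646, 3 and 2 with TVB-3166, 8 and 1 with bleomycin, 7 and 1 with doxorubicin, 7 and 2 with palbociclib and 3 and 2 with alisertib, beside 19.1% and 18.8%, 27.4% and 27.7%, 24.1% and 25.3%, 23.7% and 24.8%, 26.0% and 27.2%, and 17.7% and 19.6% of all genes in that order. Measured from day-7 cells 4 were higher and 1 lower with ND-646, 3 and 3 with TVB-3166, 7 and 1 with bleomycin, 6 and 1 with doxorubicin, 7 and 2 with palbociclib and 1 and 1 with alisertib. Of all genes, 17.2% were higher and 17.1% lower there with ND-646, 25.4% and 26.1% with TVB-3166 and 22.4% and 23.2% with bleomycin. The shares were 21.9% and 21.5% with doxorubicin, 22.0% and 22.9% with palbociclib and 9.55% and 9.49% with alisertib. Relative to day-0 cells, 5 of the 11 IGF genes were higher with TVB-3166 without replicate 1 of the day-0 cells. Without replicate 1 of ND-646 2 were lower with ND-646. Shares of all genes without a replicate are not given beside these counts. INSR, the insulin receptor to which GRB10 binds, was at 9.43, 9.95 and 10.1 CPM in day-0 cells and at 39.3, 50.7 and 55.3 CPM with ND-646. It rose in all 6 drug groups, by 2.30 ± 0.18 with ND-646 (edgeR adjusted p = 3.88e-05), 2.12 with bleomycin, 1.82 with TVB-3166, 1.74 with doxorubicin, 0.76 with palbociclib and 0.56 with alisertib.

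IGFBP5, a secreted binding protein for IGFs, moved in opposite directions among the drugs. It was at 164, 167 and 199 CPM in day-0 cells, at 29.4, 47.0 and 48.7 CPM with ND-646, at 59.9, 55.9 and 62.5 CPM with TVB-3166 and at 665, 405 and 662 CPM with palbociclib. It fell with ND-646 (-2.09 ± 0.22, edgeR adjusted p = 0.000171), TVB-3166 (-1.57, edgeR adjusted p = 1.06e-06) and alisertib (-0.42, edgeR adjusted p = 0.0492) and rose with doxorubicin (1.03) and palbociclib (1.71, edgeR adjusted p = 3.88e-05). In untreated day-7 cells IGFBP5 was at 122, 90.9 and 124 CPM, and relative to them it was lower with ND-646 (-1.43, edgeR adjusted p = 0.00203) and TVB-3166 (-0.91, edgeR adjusted p = 6.84e-05) and higher with bleomycin (0.83, edgeR adjusted p = 0.0451), doxorubicin (1.70) and palbociclib (2.38), and with alisertib it was 0.25 (edgeR adjusted p = 0.291).

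IGFBP3, another binding protein, rose with ND-646 (1.87, edgeR adjusted p = 0.0228), bleomycin (1.79), doxorubicin (2.95) and palbociclib (3.10), and with alisertib it was 0.98 (edgeR adjusted p = 0.112, and 1.17 with 0.00798 with the block). Its TVB-3166 value was 1.09 (edgeR adjusted p = 0.0659) and passed at 0.62 without replicate 1 of the day-0 cells (edgeR adjusted p = 0.0341). IGFBP4 rose with ND-646 (1.46, edgeR adjusted p = 0.0272) and bleomycin (1.34, edgeR adjusted p = 0.0127), and the ND-646 call was lost without its replicate 1 (1.01, edgeR adjusted p = 0.0577) or replicate 1 of the day-0 cells (1.52, edgeR adjusted p = 0.0725). Against day-7 cells IGFBP4 passed neither with ND-646 (0.71, edgeR adjusted p = 0.291) nor with bleomycin (0.60, edgeR adjusted p = 0.267).

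The genes with a pattern most like that of H19 were named by Pearson correlation of log2 CPM over the 24 libraries, among 12608 genes with a mean of at least 1 CPM. They were PA2G4 (r = 0.974), PRMT5 (0.961), RBMX (0.958), TBRG4 (0.955) and SNRPA (0.953). PA2G4, a proliferation-associated RNA-binding protein, was at 470, 484 and 470 CPM in day-0 cells, 238, 216 and 207 CPM with ND-646 and 221, 230 and 221 CPM with TVB-3166, a range far narrower than that of H19. By Spearman correlation 1 of these 5, and by the 8 group means 2, were again among the 5 most like H19. The libraries share their group's treatment, so these values mostly reflect differences between groups, and within groups the correlation of H19 with PA2G4 was 0.375.

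**Figure D5:**
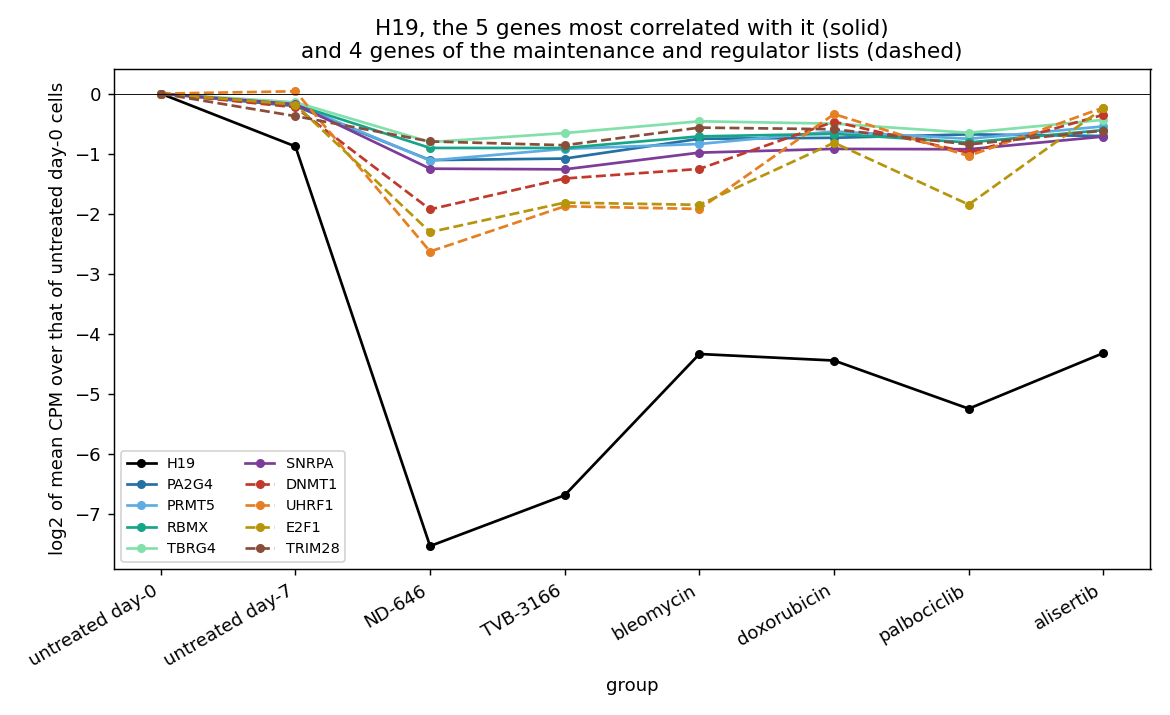
Log2 of the mean CPM of each group over that of untreated day-0 cells for H19 (black), the 5 genes most correlated with it (solid lines) and 4 genes that keep imprints or regulate H19 (dashed lines). H19 falls from a mean of 101 CPM at day 0 to 0.547 CPM with ND-646, where UHRF1 is the lowest of the other genes drawn.

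No other member was near the top of that ranking. Over the 24 libraries the correlation with H19 was 0.722 for MEST (rank 1463 of 12608), 0.561 for PEG10 (rank 2709), 0.418 for SGCE (rank 3733), -0.107 for PHLDA2 (rank 7078) and -0.398 for GRB10 (rank 9020). Among the other members the correlations were 0.734 between MEST and SGCE, 0.714 between PEG10 and MEST and 0.624 between PEG10 and SGCE, and GRB10 was negative with all 5 of the others. Within groups the correlation with H19 was 0.566 for PHLDA2, 0.422 for SGCE, 0.338 for PEG10, 0.215 for MEST and -0.015 for GRB10.

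Each of the other members had its own closest gene by the same measure. It was TMEM97 for PEG10 (r = 0.953), NSL1 for MEST (0.940), CCNJL for GRB10 (0.887), SLC27A3 for SGCE (0.920) and BLVRB for PHLDA2 (0.926). SLC22A18, the imprinted neighbour of PHLDA2, had the rank of 3 for PHLDA2 at 0.916.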

How the data were processed

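RNA-seq of 24 SKBR3 libraries was analysed from the raw count table that the authors deposited (whole numbers, 1 row per gene), made by aligning reads to GRCh37 with HISAT2, assembling transcripts with StringTie and comparing groups with DESeq2. The labels give no versions for these tools, and the counting settings and use of strand are not given in the sources used here. The kit named in the methods was for stranded total RNA, whereas the labels say mRNA. The table lists only genes with at least 1 count in every library, so a gene without a read in any 1 library is not listed. Its columns matched the 24 sample labels, 3 per group, and totals were 29405121 to 44316330 counts, so counting error matters only for genes with few reads.

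The test was that of edgeR 4.0.16, run in R 4.3.3 (filterByExpr, TMM, glmQLFit and glmQLFTest, two-sided) on both groups of each of 14 comparisons, without a block, and p-values were adjusted by Benjamini-Hochberg over all genes tested. A gene passed at an adjusted p under 0.05. With 3 libraries against 3 an exact permutation test cannot go below 0.1. Levels are TMM-normalized CPM, with a prior count of 2 for log2 CPM. Positions are from the GRCh37 annotation, and levels per kb use the union of exons.

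The members and all lists were chosen with earlier results of these data known. Genes named were the members, the listed imprinted genes of 11p15.5, up to 4 of each other list with the largest absolute log2 fold change among those that passed in ND-646 or TVB-3166 cells relative to day-0 cells, genes within 500 kb of H19, the 5 genes most correlated with H19 and the 1 most correlated with each other member. Some items, among them 1 gene of the list of regulators and 1 sequence, are not reported here.

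The labels do not tie a replicate number to a batch. The deviations of same-numbered libraries from their group means correlated at over 0.1 for all 3 numbers in 7 comparisons: alisertib and untreated day-7 against day-0 cells (lowest 0.111 and 0.102), ND-646, bleomycin, doxorubicin and alisertib against day-7 cells (lowest 0.121, 0.157, 0.114 and 0.187) and TVB-3166 against ND-646 (lowest 0.319). The replicate number was taken to pair the libraries there, and the blocked value is printed where it changed a call. The alternatives were DESeq2 1.42.0, a single fit of all 24 libraries, no filter on low counts, a minimum of 10 counts in each library, RLE size factors, the fold of 2 with a raw p under 0.05 that the authors used, the day-7 reference, the block and leaving out each replicate. The fits were tested on simulated counts.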

Additional observations from a re-analysis of the deposited data

Results flagged for a closer look

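PHLDA2 moved in opposite directions between drug groups, with no overlap with the day-0 libraries on either side. In TVB-3166 TIS cells all 3 libraries (19.1 to 28.0 CPM) were above the day-0 libraries (14.7 to 17.8 CPM), at a log2 fold change of 0.50, whereas in doxorubicin TIS cells (8.19 to 12.7 CPM) and palbociclib TIS cells (7.35 to 9.68 CPM) all 3 were below them, at -0.61 and -1.01. The difference between these drug groups was not tested.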

How the results depend on the processing

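The loss of H19 kept its direction in every drug comparison under every alternative run. H19 was chosen for its fall in these same libraries, so this is a description and no support for the fall. For single members 1030 of 1128 recomputed values stayed on the same side of the threshold or within the replicate spread, 63 lost the call and 28 gained it. Another 6 moved, all of them H19 with day-7 cells as the reference. The last 1 reversed: GRB10 with TVB-3166, which was -0.36 with day-7 cells as the reference. The cause of these changes was not tested, except that a fold of 2 asks for a larger change and a left-out library leaves fewer samples.

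With a fold of 2 and a raw p under 0.05, relative to day-0 cells 0 of the 5 other members were higher in any of the 6 drug groups, and 1, 0, 1, 0 and 2 were lower with ND-646, TVB-3166, bleomycin, doxorubicin and palbociclib. Relative to day-7 cells that rule gave 0 higher with palbociclib and 1, 0, 1, 0, 1 and 0 lower with ND-646, TVB-3166, bleomycin, doxorubicin, palbociclib and alisertib. Of the lists, in at least 1 drug group it gave 7 higher and 0 lower other imprinted genes, 0 and 3 maintenance genes, 0 and 1 regulators, and 2 and 3 neighbours of H19. The share of all genes that meets this rule was not computed. These counts, of members and lists alike, are therefore not compared with all genes.

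With day-7 in place of day-0 cells as the reference, 0 members were higher with ND-646, TVB-3166, bleomycin, doxorubicin and alisertib, 2 were lower with doxorubicin and 1 with alisertib. The shares of all genes against day-7 cells are those given above. With all 24 libraries in 1 fit and relative to day-0 cells, 2 were higher with ND-646 (29.1% of all genes) and 0 with TVB-3166 (26.3%). With doxorubicin 2 were lower there (23.9%). In that fit 1 was higher with ND-646 relative to day-7 cells (26.0%) and 1 in day-7 relative to day-0 cells (1.74%). Between TVB-3166 and ND-646 it gave 1 higher (4.50%) and 1 lower (4.51%). DESeq2 gave 1 higher in day-7 relative to day-0 cells (4.01% of all genes), and 1 higher (3.30%) and 1 lower (2.28%) between TVB-3166 and ND-646.

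With the replicate number as a block, where the numbers paired the libraries, 1 member was lower with alisertib and 1 higher in day-7 cells relative to day-0 cells, 1 was higher with ND-646 relative to day-7 cells, and SGCE was also lower with doxorubicin relative to day-7 cells. Where the numbers did not pair the libraries, MEST with ND-646 relative to day-0 cells lost its call (-0.46, edgeR adjusted p = 0.0532). That left 1 member lower (18.7% of all genes). TVB-3166 relative to day-7 cells had 1 higher (28.0%) and 4 lower (28.6%), since PEG10 (-0.43), SGCE (-0.20) and PHLDA2 (0.39) passed. The block changed no other call of a member.

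Leaving out 1 replicate at a time, the counts of higher members relative to day-0 cells ranged from 1 to 2 with ND-646, 0 to 1 with TVB-3166 and 0 to 1 with doxorubicin, and those of lower members from 1 to 3 with ND-646, 2 to 3 with TVB-3166, 3 to 4 with doxorubicin and 0 to 1 with alisertib. Relative to day-7 cells higher members ranged from 0 to 1 with TVB-3166, and lower ones from 2 to 3 with ND-646, 2 to 4 with TVB-3166, 2 to 4 with doxorubicin and 0 to 1 with alisertib, and between TVB-3166 and ND-646 both counts ranged from 0 to 1. Other imprinted genes called in at least 1 drug group ranged from 7 to 12 higher and 2 to 6 lower. No share of all genes is set beside these ranges, so they are not compared with all genes. Of the 5 genes most like H19, 1 was kept by Spearman correlation and 2 by group means.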
